A study of Mus musculus with 40 samples.

Results

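The AP-1 and immediate early genes were followed in the hearts of mice that express *Il11* in cardiomyocytes. The 10 members were *Fos*, *Fosb*, *Fosl2*, *Jun*, *Junb*, *Jund*, *Egr1*, *Atf3*, *Myc* and *Ier3*, taken by name from the 2 deposited tables, 10 of 17646 genes listed for male hearts and 10 of 17223 listed for female hearts. PolyA RNA of the heart was sequenced as 1 library per sample, and p-values measure the spread between these samples. The control mice carried 1 copy of a MerCreMer transgene, a tamoxifen-dependent Cre that the αMHC promoter drives in cardiomyocytes, lacked the *Rosa26-Il11* transgene and received tamoxifen. CM-Il11-Tg mice carried 1 copy of each transgene and were studied 1, 3 and 6 weeks after tamoxifen. The drug was given over 5 days (20 mg/kg), starting when the mice were 8 weeks old. Uninduced mice were CM-Il11-Tg mice without tamoxifen. MerCreMer was therefore present in every group, and the background was mixed C57BL/6N and C57BL6/J. There was no control group for each week: the labels put all controls at Baseline. Each group held 4 libraries per sex, except male controls and male 6-week hearts, which held 3 each.

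AP-1 is a family of transcription factors that bind DNA as dimers of FOS, JUN, ATF and MAF proteins. Many of its genes, together with *Egr1*, *Myc* and *Ier3*, are immediate early genes: they are transcribed within minutes of a signal, without new protein synthesis, and their RNAs are short-lived. In heart tissue they respond to stretch, ischaemia and cytokines, and also to events around tissue collection. IL11 belongs to the IL6 family of cytokines and signals through gp130, JAK kinases, STAT3 and ERK.

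*Junb* and *Fos* stood at opposite ends of the results below, *Junb* as a member that rose in both sexes and *Fos* as one of the most variable genes of the tables, and the 250 bases before their starts are printed for that reason. The sequences are from RefSeq, whose promoter table (GRCm38.p6) held 8 of the 10 members, and each window was found once in GRCm39, the build that the authors used. The *Junb* window is chr8:85705378-85705627 on the minus strand and the *Fos* window chr12:85520414-85520663 on the plus strand. Capitals mark TGACG (part of the cAMP response element) and CCAAT in *Junb*, and TGACG and the TATA box TATAAA in *Fos*, all 3 motifs chosen after the sequences were seen. Both are read 5′ to 3′. Distances are from RefSeq's start, which differs from the annotated gene start used for the gene coordinates below: the *Fos* window reaches 6 bases into that gene, and 18 bases lie between the *Junb* window and its gene.

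Junb: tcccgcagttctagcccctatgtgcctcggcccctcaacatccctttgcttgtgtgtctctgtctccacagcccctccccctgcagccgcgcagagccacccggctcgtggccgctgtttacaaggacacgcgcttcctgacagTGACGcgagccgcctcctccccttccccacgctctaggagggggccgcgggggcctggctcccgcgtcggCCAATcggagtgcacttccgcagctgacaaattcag
Fos: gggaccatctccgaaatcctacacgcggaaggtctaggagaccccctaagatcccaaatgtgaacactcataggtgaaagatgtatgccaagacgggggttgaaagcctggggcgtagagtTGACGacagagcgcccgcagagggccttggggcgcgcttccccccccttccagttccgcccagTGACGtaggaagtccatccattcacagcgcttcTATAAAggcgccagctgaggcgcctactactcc

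In the *Junb* window TGACG ended 102 bases before the start and CCAAT lay at bases 36 to 32. In the *Fos* window TGACG lay at bases 129 to 125 and 66 to 62, and TATAAA at bases 33 to 28. On both strands, TGACG was found in 17.8% of 32851 promoters of the same length, CCAAT in 33.8% and TATAAA in 12.4%. The full response element TGACGTCA, which contains TGACG, stood in 1.55% of all promoters, the AP-1 site TGAGTCA in 4.46%, the STAT motif TTCNNNGAA in 7.02% and the CArG box of serum response factor in 1.47%. None of these 4 was in any of the 8 member windows, which says only that these letters are not in those 250 bases.

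The libraries held 16663513 to 65333832 reads on listed genes in males and 19147947 to 30929192 in females. The deposited values are read counts scaled to library size (CPM after the authors' scaling), and all values below are on that scale. *Il11*, the check of the transgene, was between 0 and 0.166 in the controls, between 15.5 and 49.1 in uninduced hearts and between 328 and 819 after tamoxifen. The 5 cardiomyocyte markers, which check the tissue, had summed values of 46497 to 55888 in male and 31128 to 47165 in female controls. Markers of atrial cardiomyocytes were near 0 (at most 3.14 summed) except in 2 female libraries, replicate 2 at 1 week (119) and replicate 2 at 6 weeks (729), of 1 such marker listed in the male and 2 in the female table. Labels of 2 male libraries conflicted between control and 6 weeks, and both were kept out of every comparison. Because the sexes were scaled in separate tables, no test crossed them.

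Against control, *Junb*, *Myc* and *Ier3* rose at 1, 3 and 6 weeks in both sexes, by 1.72 to 6.30-fold, whereas no fall or rise of *Fos*, *Fosb*, *Fosl2* or *Egr1* passed the test at any week. In some fits that left out 1 library, *Ier3* no longer passed at 1 week in females or at each week in males. A gene was called when its adjusted p in limma (Benjamini-Hochberg over all genes tested in that sex) was under 0.05, and fold changes are on the scale of log2(value + 0.5). All 10 members passed the filter on low values in both sexes. In male hearts 3 of 10 members were higher at 1 week, beside 18.9% of the 16931 genes tested, 3 at 3 weeks beside 13.2%, and 3 at 6 weeks beside 16.2%. No member was lower in males, where 14.6%, 8.10% and 10.9% of all genes were lower at the 3 time points in turn. Females had 4 of 10 members higher at 1 week beside 15.3% of the 16956 genes tested, 3 at 3 weeks beside 16.8% and 4 at 6 weeks beside 21.7%. *Atf3* at 3 weeks was the single member that fell in females, where 13.1%, 14.5% and 21.0% of genes were lower at 1, 3 and 6 weeks. Over the 10 members the median log2 fold change at 1, 3 and 6 weeks was 0.45, 0.21 and 0.42 in males and 0.40, 0.30 and 0.48 in females, while the median over all genes tested lay between -0.01 and 0.02 in males and at -0.02 in females.

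In males the log2 fold change of *Junb* and *Myc* also reached 1 at every time point, and that of *Ier3* did at 1 and 6 weeks. All genes that rose by at least that much were 6.11%, 5.57% and 6.98% of those tested at 1, 3 and 6 weeks in males. In females *Junb* and *Myc* reached it throughout and *Ier3* at 3 weeks, beside 5.82%, 6.48% and 7.87% of all genes.

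**Figure D1:**
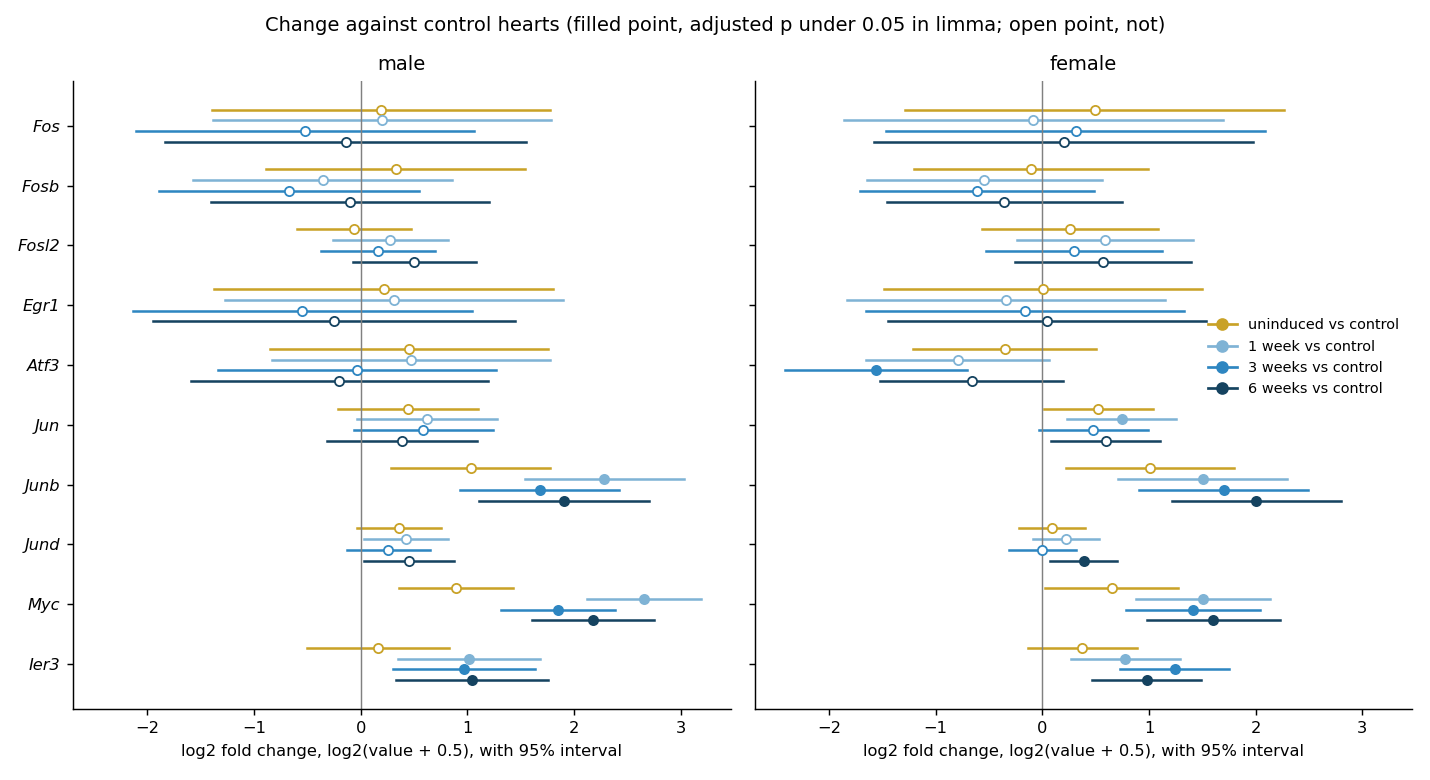
Log2 fold change of each member against control on the scale of log2(value + 0.5), with its 95% interval (x axis), for males (left) and females (right). Colours give the group and filled points an adjusted p under 0.05. *Junb*, *Myc* and *Ier3* have filled points at 1, 3 and 6 weeks in both panels, and the intervals of *Fos* and *Egr1* are wide and span 0.

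*Junb*, which encodes a JUN protein induced by many cytokines, lies at chr8:85701113-85705359 on the minus strand of GRCm39. In male controls it was at 16.3, 19.96 and 15.5. At 1 week the male values were 130, 65.3, 60.8 and 103, at 3 weeks 57.6, 91.4, 40.9 and 45.7, and at 6 weeks 111, 50.9 and 50.1. Every induced male library lay above every male control. The means were 17.2 ± 2.39 in controls (SD, n = 3) and 89.8 ± 32.7 (n = 4), 58.9 ± 22.8 (n = 4) and 70.7 ± 34.9 (n = 3) at the 3 time points. The log2 fold changes were 2.29 ± 0.36 (SE), 1.68 ± 0.36 and 1.91 ± 0.38, with adjusted p of 7.3e-05, 0.00177 and 0.000873 in limma.

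Female *Junb* was at 7.23, 10.1, 35.4 and 23.6 in controls, so that 2 control hearts were low and 2 were higher. It was at 50.8, 47, 48.2 and 38.3 at 1 week, at 58.1, 77.7, 48.6 and 34.7 at 3 weeks, and at 50.3, 73.0, 66.6 and 73.0 at 6 weeks. The groups did not overlap at 1 and 6 weeks, and 1 library at 3 weeks lay just below the highest control. The log2 fold changes were 1.505 ± 0.38, 1.70 ± 0.38 and 2.00 ± 0.38, with adjusted p of 0.00507, 0.00179 and 0.000286 in limma. Without the 2 libraries that held atrial markers they were 1.49 at 1 week and 1.95 at 6 weeks (limma adjusted p = 0.013 and 0.00134). These sizes depended on which controls were used, a split made after the data were seen. With only control replicates 3 and 4, the female log2 fold changes were 0.66, 0.85 and 1.16, and only the last passed (limma adjusted p = 0.209, 0.0841 and 0.0163). With only replicates 1 and 2 they were 2.35, 2.55 and 2.85.

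The other JUN genes had smaller log2 fold changes against control than *Junb*. *Jun* (chr4:94937271-94940459, minus strand) encodes c-JUN, the partner in the classical FOS-JUN dimer. It was at 31.3, 33.1, 67.5 and 64.4 in female controls and at 80.1, 85.4, 73.6 and 71.8 in female hearts at 1 week. These groups did not overlap, and *Jun* rose by 0.75 ± 0.25 on the log2 scale (limma adjusted p = 0.0278). The call was lost without either of the 2 low controls (0.56 and 0.59, limma adjusted p = 0.112 and 0.109) and without the 1-week library that held atrial markers (0.70, adjusted p = 0.0679), and with only controls 3 and 4 the log2 fold change was 0.23. At 3 and 6 weeks the female changes of *Jun* were 0.48 and 0.59 on the log2 scale, with adjusted p of 0.151 and 0.057, and in males they lay between 0.39 and 0.62 with none passing. The female change at 6 weeks passed without control replicate 3 or 4 or without 6-week replicate 3 (0.78, 0.75 and 0.75, limma adjusted p = 0.0198, 0.0261 and 0.0278). With only controls 1 and 2 *Jun* passed at 3 and 6 weeks (0.99 and 1.11, limma adjusted p = 0.00588 and 0.00185).

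*Jund* (chr8:71151599-71153265, plus strand) encodes the JUN protein that is expressed most evenly in resting cells. Per kilobase of exon it had the highest level of the members in the controls of both sexes, 28.2 in males and 30.3 in females, against 16.97 and 15.4 for *Jun* and 7.24 and 8.01 for *Junb*. Its one call was at 6 weeks in females. It was at 53.5, 47, 47.6 and 53.7 in female controls and at 58.7, 74.7, 51.6 and 83.8 at 6 weeks, so the groups overlapped. The log2 fold change was 0.39 ± 0.15 (limma adjusted p = 0.0431), and the call was lost without any 1 of 6 of the 8 libraries, with limma adjusted p up to 0.161. One of the 6 was the library that held atrial markers (0.33 without it, limma adjusted p = 0.123). The male change at 6 weeks was 0.45 ± 0.20, with no overlap and an adjusted p of 0.102.

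*Myc* (chr15:61857227-61862223, plus strand) encodes a transcription factor of growth and metabolism and is an immediate early gene induced through STAT3 among other routes. It was low in male controls, at 2.02, 2.80 and 2.43. At 1 week the male values were 29.8, 15.2, 13.2 and 16.6, at 3 weeks 10.8, 16, 7.85 and 7.29, and at 6 weeks 16.3, 10.8 and 11.5. No induced male library came near the control range. *Myc* rose by 2.66 ± 0.26, 1.85 ± 0.26 and 2.18 ± 0.27 on the log2 scale, or 6.30, 3.62 and 4.54-fold, with limma adjusted p of 2.42e-07, 2.2e-05 and 6.23e-06. It had the largest change of the 10 members in males at each of the 3 time points.

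In female hearts *Myc* was at 5.90, 3.77, 3.15 and 3.77 in controls. After tamoxifen it was at 13.8, 10, 12.4 and 13.8 at 1 week, at 12.5, 10.7, 13.8 and 9.79 at 3 weeks and at 8.05, 13.3, 21.6 and 13.4 at 6 weeks. All 12 induced female libraries lay above all 4 controls. The log2 fold changes were 1.51 ± 0.30, 1.41 ± 0.30 and 1.60 ± 0.30 (limma adjusted p = 0.000709, 0.00114 and 0.000254). Without the libraries that held atrial markers they were 1.61 at 1 week and 1.60 at 6 weeks (limma adjusted p = 0.00111 and 0.000973). *Myc* passed the test at 1, 3 and 6 weeks with either pair of female controls, with log2 fold changes between 1.21 and 1.81.

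**Figure D2:**
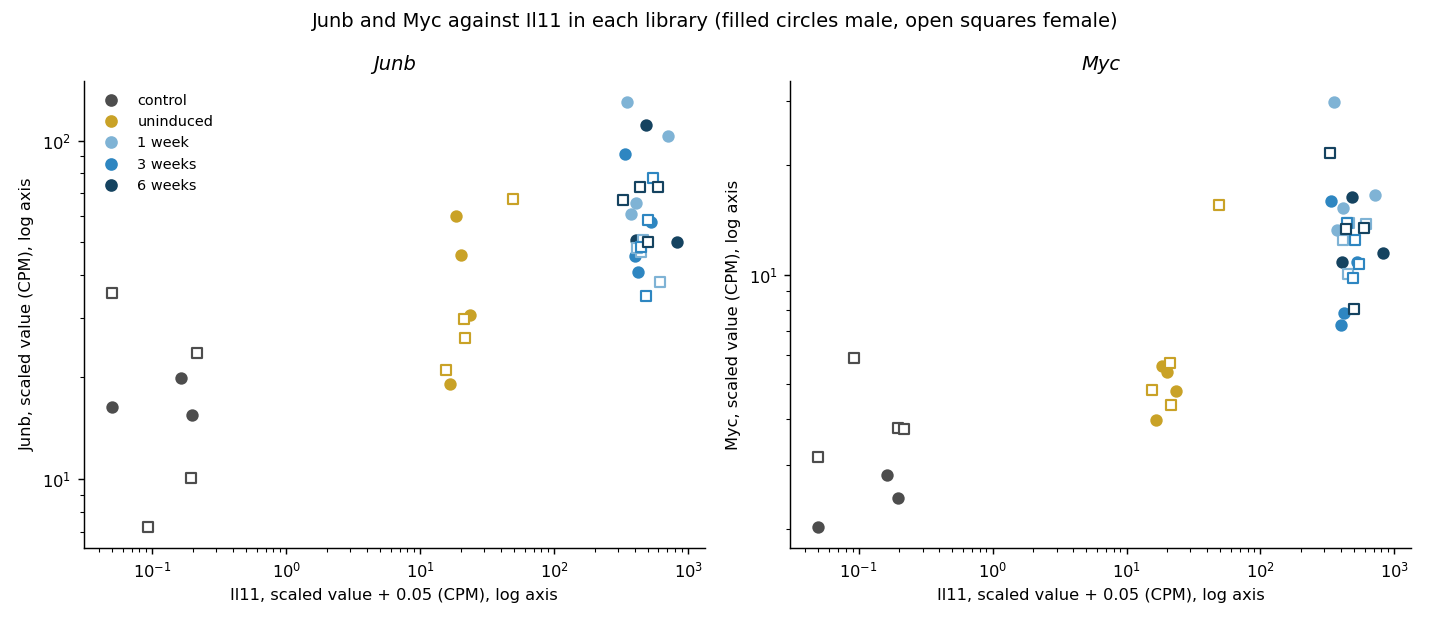
*Junb* (left) and *Myc* (right) against *Il11* in each library, scaled values in CPM on log axes, with 0.05 added to *Il11*. Filled circles are male and open squares female libraries, coloured by group; induced hearts lie to the upper right, controls to the lower left, and 1 uninduced female heart with *Il11* at 49.1 has *Myc* at 15.5.

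*Ier3* (chr17:36132568-36133815, plus strand), an immediate early gene of cell survival under stress, rose by less. It was at 19.9, 18.6 and 11.7 in male controls, at 48.6, 30.7, 29.9 and 28.4 at 1 week, at 22.7, 28.7, 39.0 and 43.6 at 3 weeks and at 31.3, 18.4 and 68.8 at 6 weeks. Only at 6 weeks did a male library fall within the control range. The log2 fold changes were 1.02 ± 0.32, 0.97 ± 0.32 and 1.04 ± 0.34 (limma adjusted p = 0.0187, 0.0345 and 0.0279). These calls were weak: without control replicate 4 the limma adjusted p were 0.106, 0.167 and 0.128, and without the 6-week heart at 68.8 the last change was 0.55 (adjusted p = 0.181). The call at 3 weeks was lost in 4 of the 7 fits that left out 1 library. That at 6 weeks was also lost in a fit of the 2 groups alone (limma adjusted p = 0.114).

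Female *Ier3* was at 21.5, 24.8, 11.3 and 13.7 in controls, at 24.0, 35.6, 32.6 and 27.3 at 1 week, at 28.6, 49.5, 47.8 and 41.3 at 3 weeks and at 28.5, 39.6, 33.6 and 35.0 at 6 weeks. At 3 and 6 weeks all libraries were above the controls, and 1 library at 1 week was not. It rose by 0.78 ± 0.25, 1.24 ± 0.25 and 0.98 ± 0.25 on the log2 scale (limma adjusted p = 0.0219, 0.000601 and 0.00344). Without the libraries that held atrial markers it was at 0.69 at 1 week and 0.90 at 6 weeks (limma adjusted p = 0.0677 and 0.0138). The call at 1 week was lost in 4 of the 8 fits that left out 1 library (limma adjusted p up to 0.0876). In the controls *Ier3* ran opposite to *Junb*: the 2 hearts with low *Junb* had the higher *Ier3*. With only controls 1 and 2 its changes were 0.35, 0.81 and 0.55, and only that at 3 weeks passed (limma adjusted p = 0.034).

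Marker genes of other cells moved with these rises. All 5 fibroblast markers were higher at 1 week in males and 4 of 5 in females (4 of 5 at 6 weeks in both), and their summed value went from 561 to 851 in male controls to 5945 to 8275 at 1 week. In females the sum went from 644 to 871 to 4887 to 8720. The 5 macrophage markers were all higher at 1 and 6 weeks in both sexes, with sums of 83.4 to 153 in male controls and 321 to 417 at 1 week. Of all genes 18.9% and 16.2% were higher at 1 and 6 weeks in males and 15.3% and 21.7% in females. Of the 5 endothelial markers 4 were lower at 1 week in both sexes, and of the 5 cardiomyocyte markers 1 was lower. Of all genes 14.6% were lower at 1 week in males and 13.1% in females. The summed cardiomyocyte markers were at 28095 to 48573 at 1 week in males and 26517 to 39645 in females, against the control sums above. The sum of 4 pericyte and smooth muscle markers went from 621 to 716 in male controls to 321 to 485 at 1 week. In females it went from 641 to 675 to 380 to 462. The part of these cells in the rise of *Junb*, *Myc* and *Ier3* was not tested, and in RNA of whole tissue fewer cells of a type and less RNA per cell cannot be told apart.

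*Fos* (chr12:85520658-85524047, plus strand), the prototype immediate early gene, differed more among hearts of one group than between groups. In male controls it was at 19.0, 12.4 and 7.93, at 1 week at 46.3, 9.64, 5.79 and 15.4, at 3 weeks at 9.60, 23.9, 3.98 and 5.34, and at 6 weeks at 36.2, 6.60 and 5.57. In female controls it was at 1.16, 1.26, 56.2 and 19.6, a range that enclosed every other female library. The female values were 8.57, 5.80, 4.93 and 8.02 at 1 week, 10.7, 14.7, 8.22 and 4.88 at 3 weeks, and 5.95, 8.98, 14 and 6.01 at 6 weeks. No comparison of *Fos* with control passed, and the intervals were wide. At 6 weeks the log2 fold change was -0.14 (95% interval -1.83 to 1.55) in males and 0.20 (-1.58 to 1.98) in females. With only female controls 1 and 2 the log2 fold change of *Fos* at 6 weeks was 2.35 (limma adjusted p = 0.00911), and with only controls 3 and 4 it was -1.95 (limma adjusted p = 0.0342).

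*Fosb* (chr7:19036621-19043976, minus strand) encodes a FOS protein that accumulates under repeated stimulation. It was the member with the fewest reads, down to 10 in a library, and its values ran from 0.478 to 6.94 in males and from 0.431 to 8.76 in females. Both ends of the female range were control hearts. *Fosl2* (chr5:32292707-32315186, plus strand) encodes FRA2, a FOS protein without a strong transactivation domain. It was at 23.5, 22.8, 131 and 90.1 in female controls, again 2 low and 2 high, and at 46.1 to 138 across all male libraries. No comparison of *Fosb* or *Fosl2* with all controls passed in either sex. For both genes in females this turned on the controls. With only controls 3 and 4 the log2 fold change of *Fosb* was -1.92, -1.99 and -1.73 at 1, 3 and 6 weeks (limma adjusted p = 0.00188, 0.00115 and 0.00268). With only controls 1 and 2 *Fosb* was at 1.02 at 6 weeks (limma adjusted p = 0.0393). Without control replicate 3 the log2 fold change of *Fosl2* was 1.045 at 1 week and 1.023 at 6 weeks (limma adjusted p = 0.0294 and 0.0245), against 0.59 and 0.57 with all 4. With only controls 1 and 2 it was 1.69, 1.4 and 1.67 at 1, 3 and 6 weeks (limma adjusted p = 4.1e-05, 0.000254 and 2.9e-05), and with only controls 3 and 4 it was -0.81 at 3 weeks (limma adjusted p = 0.0258). The male log2 fold change of *Fosl2* at 6 weeks was 0.50 (95% interval -0.07 to 1.08).

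*Egr1* (on chromosome 18), a zinc finger factor induced through ERK and serum response factor, was as variable as *Fos*. It ran from 3.75 to 85.8 in males, both in CM-Il11-Tg hearts, and from 5.27 to 72.1 in females. The log2 fold change at 6 weeks was -0.25 (95% interval -1.95 to 1.44) in males and 0.04 (-1.45 to 1.53) in females, and none of its comparisons passed.

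*Atf3* (chr1:190902493-190950241, minus strand), a stress-induced repressor of the ATF family, was the only member with a fall that passed the test when all libraries of the groups were used. In female controls it was at 83.3, 26.9, 76.7 and 76.0, and at 3 weeks at 31.8, 11.5, 21.5 and 20.6. The groups overlapped because 1 control was low, and *Atf3* fell by 1.56 on the log2 scale (SE 0.41, limma adjusted p = 0.00643). With only controls 1 and 2 *Atf3* changed by -1.22 at 3 weeks and did not pass (limma adjusted p = 0.101). Its changes of -0.79 at 1 week and -0.66 at 6 weeks did not pass (limma adjusted p = 0.162 and 0.201), though without the low control both did (-1.18 and -1.05, adjusted p = 0.0359 and 0.0433). In males *Atf3* was at 18.1, 26.7 and 23.1 in controls and at 90.9, 9.92 and 7.77 at 6 weeks, with a log2 fold change of -0.20 (95% interval -1.59 to 1.19). The library at 90.9 decided this value: without it the change was -1.30 against control (limma adjusted p = 0.0668) and -1.75 against uninduced hearts (limma adjusted p = 0.0139).

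**Figure D3:**
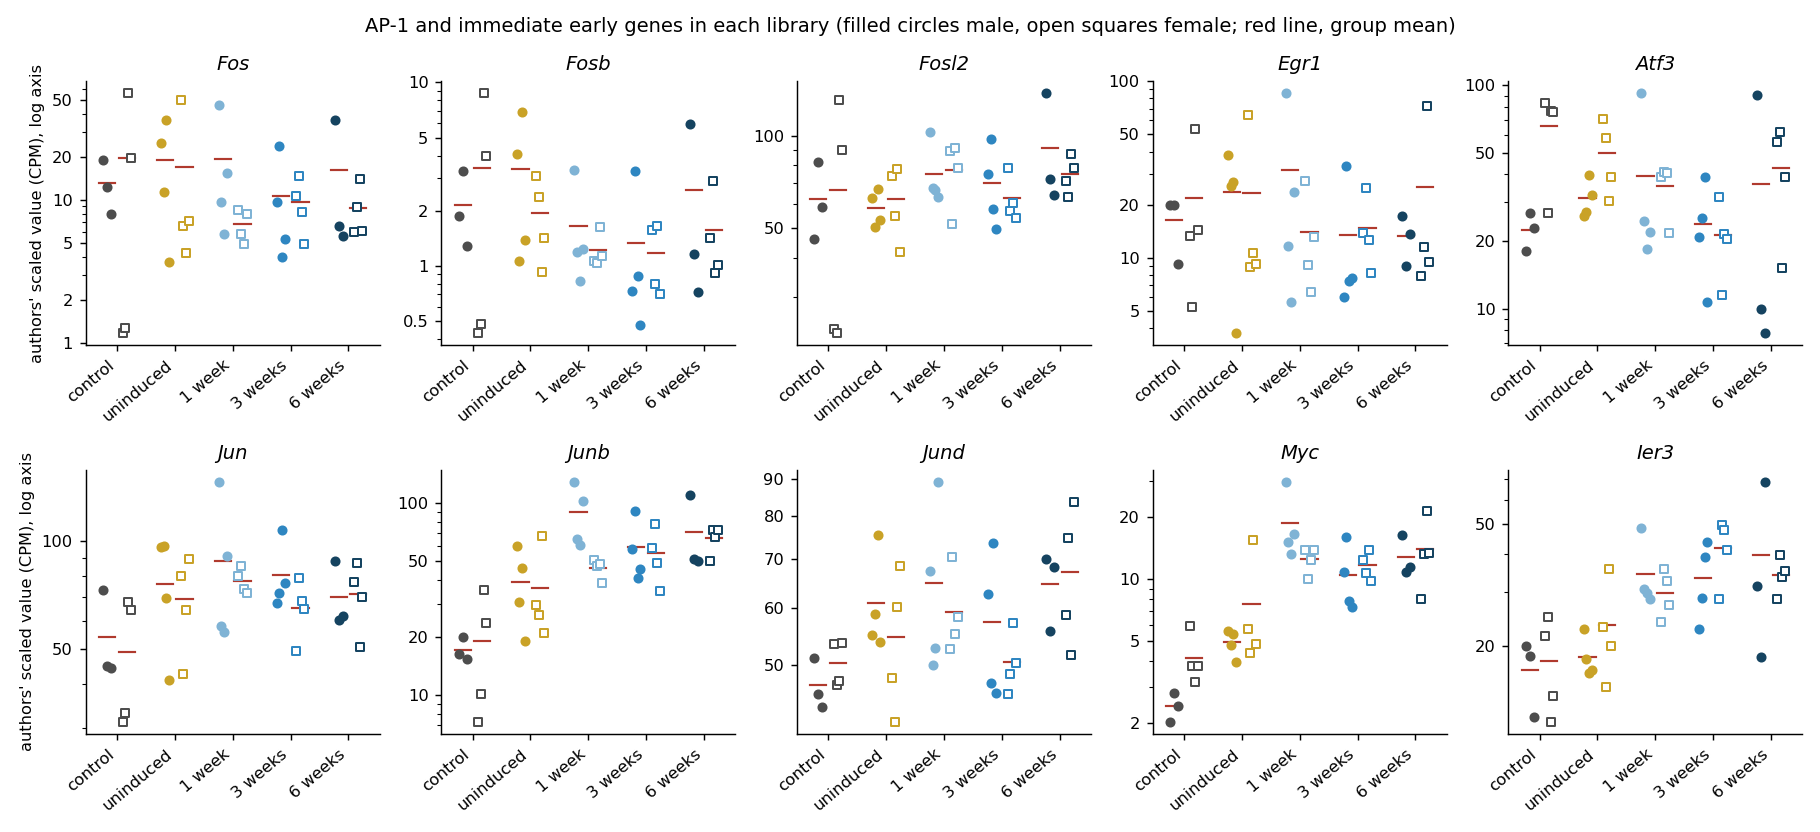
Scaled value (CPM, log axis) of each member in each library by group. Filled circles are male, open squares female and red lines group means; *Junb* and *Myc* step up from control to the induced groups, while *Fos*, *Fosb* and *Fosl2* spread wide among the female controls.

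The uninduced hearts, in which *Il11* was already above control without tamoxifen, had mean levels of *Junb* and *Myc* between those of control and induced hearts. They differed from controls in both the *Rosa26-Il11* transgene and tamoxifen. From induced hearts they differed in tamoxifen, the Cre activity that depends on it, and the level of *Il11*. The parts of these cannot be told apart in any comparison with uninduced hearts. Male *Myc* was at 5.61, 4.77, 5.39 and 3.98 in uninduced hearts, above all 3 controls, and its log2 fold change against control was 0.90 (95% interval 0.36 to 1.43). Male *Junb* was at 60.0, 30.6, 45.8 and 19.0, with a change of 1.03 (0.29 to 1.78). Neither passed in limma (adjusted p = 0.155 and 0.275), where 0.597% of all male genes did, although *Myc* passed in DESeq2 (1.02, adjusted p = 0.0386) and in a fit of these 2 groups alone (adjusted p = 0.0322). No member was called in females either, beside 2.87% of genes. Female uninduced *Junb* was at 29.6, 26.1, 67.2 and 21.0 and *Myc* at 5.71, 4.38, 15.5 and 4.82, with changes of 1.01 and 0.65. Without replicate 3, the library with *Junb* at 67.2, they were 0.66 and 0.26 (limma adjusted p = 0.524 and 0.745). All 5 macrophage markers were higher in uninduced than in control female hearts and 0 of 5 passed in males. Of the 5 fibroblast markers 1 was higher in each sex, and their summed value was 1010 to 1597 in male and 1097 to 1513 in female uninduced hearts, above all controls of that sex (561 to 851 and 644 to 871). The part of these cells was not tested. Counts at an unadjusted p under 0.05 were 1789 genes in males and 2605 in females.

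Replicate 3 of the female uninduced hearts stood apart. It held *Il11* at 49.1, against 15.5 to 21.4 in the other 3, and *Socs3*, a feedback inhibitor induced through STAT3, at 56.1, against 6.42 to 13.8. It was also the highest of the 4 for *Junb*, *Myc* and *Ier3*. Comparisons of induced with uninduced hearts are given with and without it below.

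After tamoxifen, *Myc* was above the uninduced level in males at each time point, with log2 fold changes of 1.76 ± 0.24, 0.96 ± 0.24 and 1.29 ± 0.26 and no overlap of libraries (limma adjusted p = 3e-05, 0.00823 and 0.00128). At 1 week *Junb* and *Ier3* were also higher, by 1.25 ± 0.33 and 0.86 ± 0.29 (limma adjusted p = 0.0113 and 0.0479). The changes of *Ier3* at 3 and 6 weeks were of like size, 0.81 ± 0.29 and 0.88 ± 0.32 (limma adjusted p = 0.0692 and 0.0557), and passed in DESeq2 (adjusted p = 0.0258 and 0.00509) and, at 6 weeks, in edgeR (adjusted p = 0.0205). These 5 calls stand beside 18.8%, 16.1% and 20.4% of all male genes called at 1, 3 and 6 weeks. That of *Ier3* at 1 week was lost with the replicate number as a block (limma adjusted p = 0.0645), with a pseudocount of 2 (0.0527) and without any 1 of 7 of the 8 libraries (up to 0.145), and that of *Junb* without uninduced replicate 4 (adjusted p = 0.056). In females 3 calls were made, beside 12.6%, 16.7% and 22.8% of genes: *Ier3* rose at 3 weeks by 0.87 ± 0.25 (limma adjusted p = 0.0187), *Myc* rose at 6 weeks by 0.95 ± 0.30 (adjusted p = 0.0262), and *Atf3* fell at 3 weeks by 1.21 (adjusted p = 0.049). All 3 were weak. The call of *Ier3* was lost in 4 of the fits that left out 1 library (limma adjusted p up to 0.081) and that of *Atf3* in 6 of them (up to 0.151) and with a pseudocount of 2 (0.0511). The call of *Myc* was lost in 5 of them (up to 0.101), in edgeR (adjusted p = 0.055) and in a fit of the 2 groups alone (0.129). Without uninduced replicate 3, singled out after the data were seen, there were 8 calls. Among them were *Myc* at 1 and 3 weeks (1.25 and 1.15, limma adjusted p = 0.000824 and 0.00122) and *Junb* at 3 and 6 weeks (1.04 and 1.34, adjusted p = 0.0438 and 0.00889). Because replicate 3 was the highest uninduced heart for *Junb*, *Myc* and *Ier3*, leaving it out had to raise their changes, so these added calls are no separate support.

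Between the weeks no member was called in either sex by limma, edgeR or DESeq2. All genes called in limma were 0.0177%, 0.165% and 0% of those tested for 3 against 1, 6 against 1 and 6 against 3 weeks in males, and 0.218%, 1.03% and 0% in females. The counts at an unadjusted p under 0.05 were 2710, 2615 and 1072 genes in males and 1699, 2137 and 2572 in females. *Myc* came closest among the members, at 18.7 ± 7.50 at 1 week and 10.5 ± 3.97 at 3 weeks in males, a log2 difference of -0.80 ± 0.24 (limma adjusted p = 0.152). The order of the male means of *Junb* was control, uninduced, 3 weeks, 6 weeks and 1 week, and no pair of neighbours in that order passed the test (3 weeks against uninduced, limma adjusted p = 0.211). In females the means of *Junb* went from control through uninduced to 1, 3 and 6 weeks, again with no neighbouring pair passing.

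The spread between hearts of a group set what these comparisons could show. The within-group SD of log2(value + 0.5) was 1.2 for *Fos* and 1.21 for *Egr1* in males, where the median over all genes tested was 0.23 and only 20 and 19 genes had a larger SD. In females it was 1.4 for *Fos*, with 5 genes above it, and 1.17 for *Egr1*, with 18, beside a median of 0.21. *Atf3* (0.99 and 0.67) and *Fosb* (0.91 and 0.85) followed. *Junb* (0.56 and 0.62), *Jun* (0.49 and 0.39), *Ier3* (0.49 and 0.39), *Fosl2* (0.39 and 0.64) and *Myc* (0.38 and 0.48) were lower but above the median gene. *Jund* was nearest to it, at 0.28 and 0.23, the 67.7th and 57.7th percentiles. Counting error is small beside this, since *Fos* had at least 121 reads in every male and 26 in every female library.

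**Figure D4:**
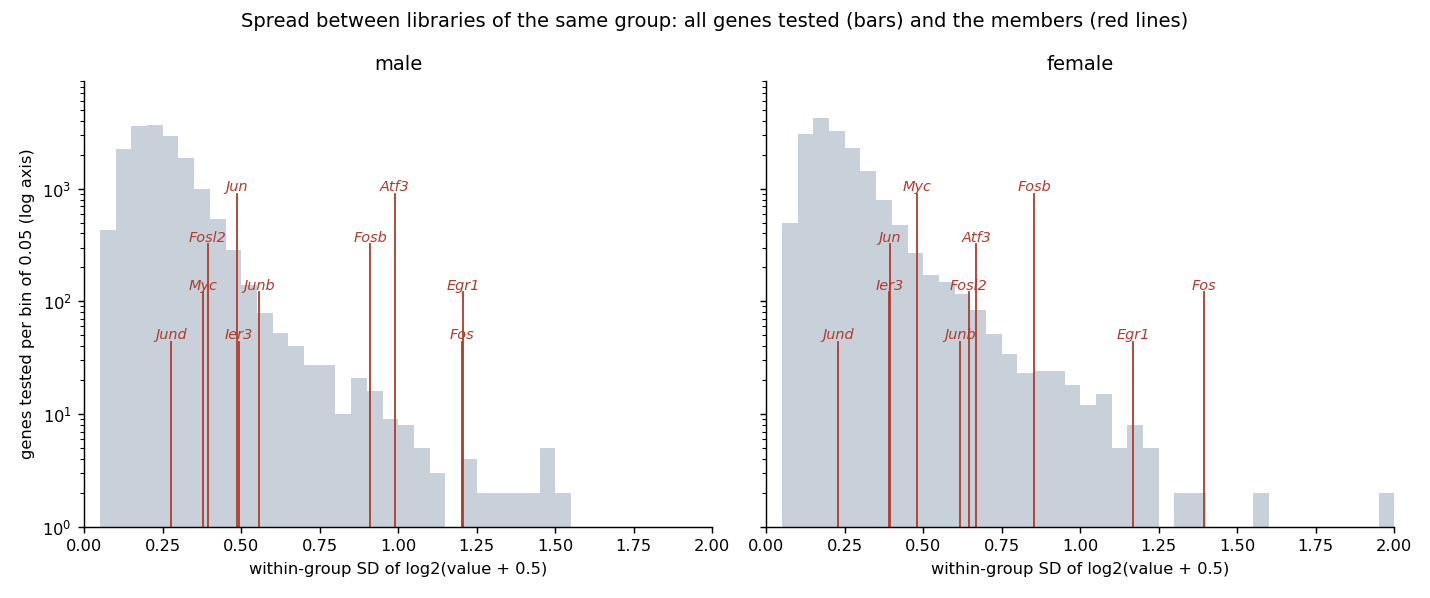
Number of genes tested (log axis) by within-group SD of log2(value + 0.5), in bins of 0.05, for males (left) and females (right), with the members as red lines whose heights carry no value. *Fos* and *Egr1* stand in the far right tail in both panels and *Jund* near the bulk.

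Several of the variable members varied together, though not in every pair. As a description over deviations from the group means, in 18 male and 20 female libraries that share depth and handling, the gene most like *Fos* among 10629 compared was *Egr1* (r = 0.84 in males and 0.77 in females), followed by *Apold1* (0.83 and 0.75). *Fosb* was most like *Fos* (0.87 and 0.83) and *Fosl2* (0.86 and 0.78). *Fosl2* and *Junb* were both most like *Btg2*, an antiproliferative immediate early gene, at 0.93 and 0.87 and at 0.90 and 0.76, and second came *Adamts1* (0.86 and 0.80) and *Fosl2* (0.75 and 0.79). *Jun* was most like the heat shock co-chaperone gene *Dnajb1* (0.78 and 0.87) and *Ccdc117* (0.73 and 0.76). For *Egr1* it was *Dusp6*, a phosphatase of ERK (0.83 and 0.80), and *Fos*, and for *Atf3* it was *Ifrd1* (0.78 and 0.75) and *Nr4a3* (0.78 and 0.74). These are the best matches of each gene. Among the members themselves *Atf3* and *Fos* had r = 0.60 in males and 0.22 in females, *Atf3* and *Egr1* 0.39 and -0.08, and *Fosb* and *Egr1* 0.66 and 0.38.

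*Jund* and *Ier3* had r of at most 0.35 with *Fos*, *Fosb*, *Fosl2*, *Junb* and *Egr1* in both sexes. In females the r of *Ier3* was negative with each of these, at -0.52, -0.61, -0.53, -0.10 and -0.26 in that order. The lowest r of *Jund* with them was -0.40, with *Egr1* in females. The genes most like *Jund* were *Trp53rka* (0.84 and 0.86) and *Ube2g2* (0.82 and 0.83), those most like *Myc* were *Star* (0.76 and 0.80) and *H3f3b* (0.75 and 0.85), and those most like *Ier3* were *Erf* (0.78 and 0.79) and *Tspan4* (0.73 and 0.86). *Myc* had r of 0.78 to 0.86 with those 5 members in males and of -0.37 to 0.25 in females.

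**Figure D5:**
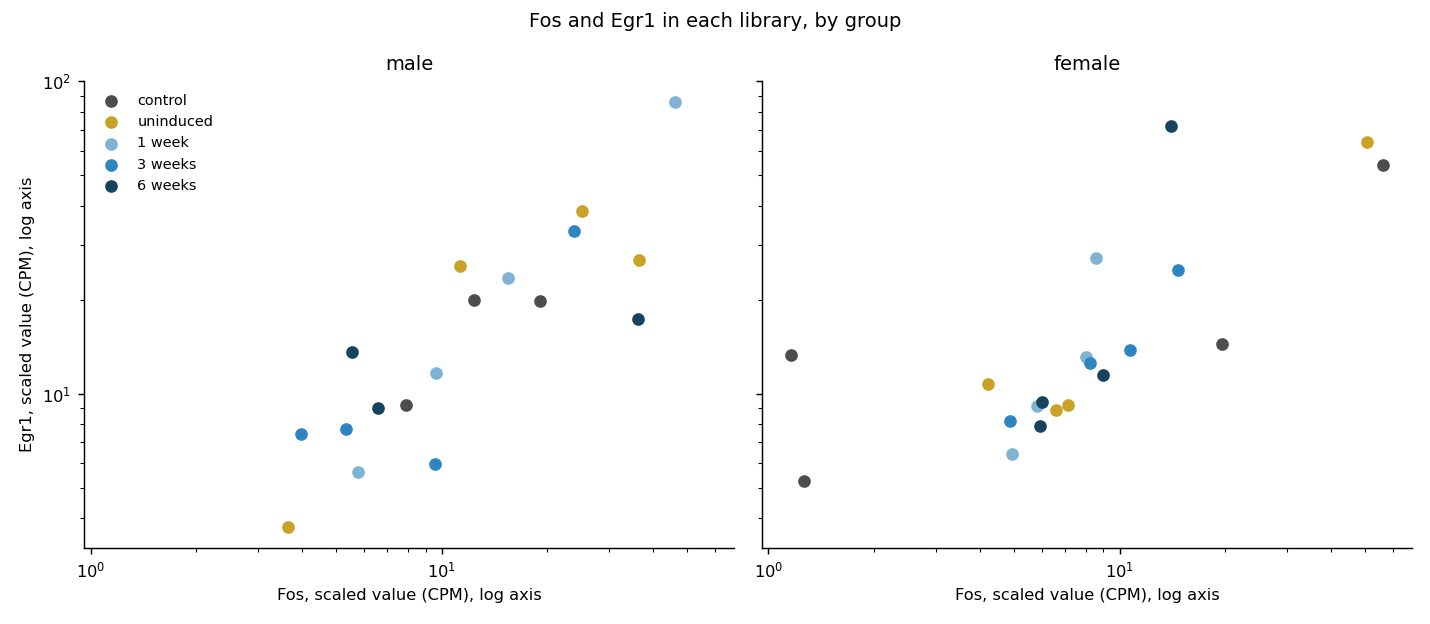
*Fos* (x axis) and *Egr1* (y axis) in each library, scaled values in CPM on log axes, for males (left) and females (right), coloured by group. Hearts with much of one tended to have much of the other (r = 0.84 and 0.77 within groups), and the female controls run from 1.16 to 56.2 on the *Fos* axis.

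Clock genes moved with the spread of *Fos* among the female controls, but not in every other female group. The 2 controls with *Fos* at 1.16 and 1.26 had *Dbp*, a clock output gene, at 103 and 130 and *Arntl*, the core activator in antiphase to it, at 1.46 and 1.21. In the 2 controls with *Fos* at 56.2 and 19.6 *Dbp* was at 19.2 and 34.3 and *Arntl* at 16.3 and 9.09. The summed value of 13 clock genes was 782 and 863 in the former and 477 and 529 in the latter. Among female uninduced hearts, replicate 1 had the highest *Fos* (50.5), the highest *Dbp* (64.05) and the lowest *Arntl* (4.04). Replicate 2 had *Dbp* at 2.33 and *Arntl* at 29.1 with *Fos* at 6.604. At 6 weeks *Dbp* was at 5.23 in replicate 1 and 118 in replicate 4, with *Fos* at 5.95 and 6.01. At 1 week the heart with the lowest *Fos* (4.93) had the highest *Dbp* (42.4), the same direction as in the controls. Among male hearts, the one with the highest *Fos* had the lowest *Dbp* in controls (38.4) and at 6 weeks (15.0). At 1 and 3 weeks the male heart with the highest *Fos* had *Dbp* at 53.5 and 55.2, above the lowest in those groups (23.6 and 12.3). In female hearts at 3 weeks the sum of the 13 clock genes was 586 to 680, at 1 week 358 to 444 and at 6 weeks 247 to 548. Of the 13 clock genes 8 were lower at 6 weeks in females, 5 at 1 week and 0 at 3 weeks, and in males 2 were lower at 1 week and 0 at the other times. Time of collection is not given in the sources used here, and the part of the clock genes in these results was not tested. *Hspa1a*, a heat shock gene that rises with handling, was at 8.79 to 50.6 in male and 8.26 to 25.8 in female controls. Of 8 heat shock genes 2 were lower at 1 week in each sex. At 3 weeks 0 were lower in males and 2 in females, at 6 weeks 2 in males and 0 in females, and their part was not tested either. Beside the clock and heat shock counts, 14.6%, 8.10% and 10.9% of all genes were lower at 1, 3 and 6 weeks in males. In females these shares were 13.1%, 14.5% and 21.0%.

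Some AP-1 genes outside the 10 members also rose. Of 12 such genes 11 were listed, of which 6, 4 and 4 were higher at 1, 3 and 6 weeks in males, beside 18.9%, 13.2% and 16.2% of all genes, and 1, 0 and 0 lower. In females 4, 4 and 5 were higher, beside 15.3%, 16.8% and 21.7%, and 1, 2 and 2 lower. *Batf3* and *Batf*, partners of JUN proteins in leukocytes, rose at 6 weeks by 1.42 and 1.4 on the log2 scale in males and 1.73 and 1.68 in females. *Maf*, which is prominent in macrophages, rose by 1.18 in males and 1.2 in females. For the largest of these, *Batf3*, the level went from 0.262 to 0.456 in male controls to 1.45 to 2.19. The macrophage markers given above rose in the same hearts.

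Of 26 other immediate early genes, 5, 2 and 2 were higher and 2, 1 and 1 lower at 1, 3 and 6 weeks in males, and 3, 2 and 2 were higher and 7, 8 and 3 lower in females. Of all genes 18.9%, 13.2% and 16.2% were higher in males and 15.3%, 16.8% and 21.7% in females. The shares lower were 14.6%, 8.10% and 10.9% in males and 13.1%, 14.5% and 21.0% in females. The median log2 fold change of the list was 0.12, -0.18 and 0.00 in males and -0.37, -0.43 and -0.15 in females. *Socs3* and *Cebpd*, both known targets of STAT3, rose at 6 weeks by 4.65 and 1.58 in males and 4.56 and 1.36 in females, and *Rhob* fell by 0.61 and by 0.74. *Socs3* was between 2.69 and 2.90 in male controls and between 65.0 and 94.4 at 6 weeks.

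Among 16 kinases and serum response factor partners upstream of these genes, 0, 0 and 1 were higher and 7, 3 and 5 lower in males at 1, 3 and 6 weeks, and 1, 0 and 2 were higher and 0, 4 and 4 lower in females. At 6 weeks *Mapk10*, which encodes the JNK3 kinase, fell by 1.26 in males and by 0.70 in females, *Map2k4*, a kinase of JNK, fell by 0.42 and by 0.23, and *Mrtfa*, a coactivator of serum response factor, rose by 0.85 and 0.68. Of 10 genes of the MYC network 1 was higher and 1 lower at 6 weeks in males and 1 higher and 4 lower in females. *Mycn* fell by 1.31 and by 0.97, and *Mycl* rose by 0.73 and 0.95 from control values under 0.4. Beside both lists 18.9%, 13.2% and 16.2% of all genes were higher in males and 15.3%, 16.8% and 21.7% in females. The shares lower at the same time points were 14.6%, 8.10% and 10.9% in males and 13.1%, 14.5% and 21.0% in females.

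Among genes often used as AP-1 targets more rose than fell. Of 14 listed by name 13 were measured, with 8, 7 and 6 higher and 2, 1 and 4 lower at 1, 3 and 6 weeks in males, and 7, 7 and 9 higher and 1, 1 and 2 lower in females. Of all genes 18.9%, 13.2% and 16.2% were higher in males and 15.3%, 16.8% and 21.7% in females. The shares lower were 14.6%, 8.10% and 10.9% in males and 13.1%, 14.5% and 21.0% in females. This list was chosen with earlier results of these data known, so its rises are no independent result. The matrix metalloproteinase gene *Mmp3* was at 0.795 to 2.06 in male controls and 192 to 224 at 6 weeks (log2 fold change 6.78, and 7.45 in females). *Mmp9* rose by 4.81 and 4.68 and the inhibitor gene *Timp1* by 4.55 and 4.99. *Mmp10* was at 0 to 0.0163 in male and 0 to 0.1 in female controls and at 1.91 to 2.16 and 1.39 to 4.25 at 6 weeks, with control values too low for a fold change. These genes respond to other factors as well, and which factor moved them was not measured.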

How the data were processed

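Libraries were prepared from polyA RNA with a directional kit and sequenced as read pairs. The authors aligned them to GRCm39 with STAR, counted reads per gene with featureCounts and deposited, for each sex in its own table, a scaled signal that they call CPM (counts per library size after edgeR scaling); the strand setting of the counting is not given in the sources used here. All values were whole multiples, within 0.001, of what 1 read is worth in that library, so reads were recovered. No replicate pair (54 within groups) agreed within sampling noise.

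Of 40 libraries 38 were grouped by their labels, 18 male and 20 female, and 2 with conflicting labels were left out. Per sex, 1 limma fit (version 3.58.1, R 4.3.3, mean-variance trend, no covariates) was run on log2(value + 0.5) over genes at 0.5 or more in at least 3 libraries, with Benjamini-Hochberg adjustment over all of them. Alternatives were edgeR's quasi-likelihood test (4.0.16) and DESeq2 (1.42.0) on the recovered reads, pseudocounts of 0.1 and 2, other filters, median-of-ratios scaling, only the 2 groups compared, a replicate block, and each library left out. The test was checked on simulated data. The members and gene lists were chosen with earlier results of these data known. All members were named, and from the other lists up to 4 genes called in both sexes at 6 weeks with the largest mean log2 fold change. One gene that this rule names is not reported here. Likeness is Pearson's r of deviations from group means of log2 values. Levels were compared between genes per kilobase of exon.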

Additional observations from a re-analysis of the deposited data

Results flagged for a closer look

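In 80 groups of 4 libraries, 13 held a library far from the other 3 (by Dixon's criterion at the 95% level). That level flags about 1 in 20 groups by chance only where values are normally distributed. Here the criterion was applied to scaled values without logs, and the members are not independent of each other. The count can therefore not be set against that rate. Replicate 1 of the male 1-week hearts was high for *Fosb* (3.35), *Fosl2* (103), *Atf3* (92.5) and *Ier3* (48.6). Replicate 2 of the male 3-week hearts was high for *Fosb* (3.27) and *Egr1* (33.1). Replicate 1 of the female uninduced hearts was high for *Fos* (50.5) and *Egr1* (64.2), and replicate 3 of that group for *Myc* (15.5). *Egr1* was high in replicate 3 of the female 6-week hearts (72.1) and *Fosb* in replicate 3 of the female 1-week hearts (1.63). *Atf3* was low in female control replicate 2 (26.9) and in replicate 4 of the female 1-week hearts (21.9).

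The 2 male libraries with conflicting labels, which no comparison used, were set beside the male controls. The library titled as 6 weeks and described as control held *Il11* at 0.597, above the highest control (0.147) and below the 6-week range of 407 to 819. Its *Jund* (63.5) and *Ier3* (22.2) lay above the controls, and its *Fos* (1.43), *Fosb* (0.398), *Fosl2* (30.9), *Junb* (14.01), *Egr1* (3.82) and *Atf3* (17.7) below them. The library titled as control and described as 6 weeks held *Il11* at 511. Its *Myc* was at 15.5, *Junb* at 34.7, *Fosl2* at 101, *Atf3* at 55.2, *Jund* at 55.2, *Ier3* at 22.9 and *Jun* at 73.3, all above the highest control.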

How the results depend on the processing

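No member's direction reversed with a call in any alternative fixed at the start. *Junb* and *Myc* kept their calls against control at 1, 3 and 6 weeks in those alternatives and with each library left out, in both sexes. The replicate numbers did not pair the libraries (mean correlation of same-numbered deviations 0.013 in males and 0.025 in females), and with the replicate block 199 of 200 member results kept their side of the threshold. The exception was *Ier3* at 1 week against uninduced in males (0.86, limma adjusted p = 0.0645). In uninduced males 1 member was called in DESeq2 and 1 with only the 2 groups, against 0. With a log2 fold change of at least 1 required, females had 2 calls at 1 week and 2 at 6 weeks against 4 each, and against uninduced 3 in males and 1 in females (5 and 3 without it). With each library left out, calls ranged in females from 0 to 1 (uninduced), 2 to 4 (1 week), 4 to 4 (3 weeks), 3 to 5 (6 weeks) and 0 to 8 (against uninduced), and in males from 0 to 0, 2 to 4, 2 to 3, 2 to 3 and 3 to 7. Between weeks they stayed at 0. Splitting the female controls was chosen after seeing the data. With only controls 1 and 2, 4 members were called in uninduced hearts, *Fos* at 1 week was at 2.07 and *Fosb* at 6 weeks at 1.02, both opposite in sign to the values with all controls. With only controls 3 and 4, *Fosl2* at 3 weeks was at -0.81 and *Fos* at 6 weeks at -1.95, again opposite. The cause was not tested. Groups of 3 or 4 limit what can be called for members as variable as *Fos* and *Egr1*, and *Fosb* had as few as 10 reads in a library.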
